A study of Mus musculus with 5 samples.

Results

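Microglial identity genes were followed in 5 RNA-seq libraries of cultured mouse (ICR) brain cells. The list holds 39 genes of microglia and brain macrophages, chosen by symbol and matched to the table through their RefSeq transcripts. Of the 39 genes, 38 were found among the 20178 transcripts of the table, and the remaining gene, Cd68, was not analysed here. The 38 genes are grouped below by role into regulators of the lineage, homeostatic genes, leukocyte surface and cytoplasmic genes, Fc receptors with their adaptors, phagolysosome genes and macrophage scavenger genes.

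The libraries came from ventral midbrain (VM) astrocytes without virus (untransduced VM), 2 transduced VM cultures whose samples are titled VM C and VM NF, cortical (Ctx) astrocytes and Ctx neural progenitor cells (NPC), with 1 library per condition. The 4 astrocyte libraries were made from cells of postnatal day 5, labelled as astrocyte progenitor cells, the NPC library from cells of embryonic day 12, and all 5 from passage 2. The virus was a lentivirus in which the CMV promoter, which is not limited to one cell type, drove Nurr1 (gene Nr4a2) from a mouse cDNA or Foxa2 from a rat cDNA, and the mock virus carried the empty backbone. Whether the RNA-seq cultures were mixed glia or astrocytes freed of microglia by shaking is not given separately in the sources used here.

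The labels of the transduced libraries contradict each other: the entry on the virus gives Nurr1 and Foxa2 to the library titled VM C and the mock virus to the one titled VM NF. Nr4a2 had 81 reads in untransduced VM, 53 in VM C, 183 in VM NF, 106 in Ctx astrocytes and 93 in Ctx NPC. For Foxa2 the reads were 68, 15, 216, 1 and 0. The 2 genes were highest in the library titled VM NF, so the titles are followed, and VM C and VM NF are used below strictly as the titles of 2 libraries. Reading any direction between them as one between the viruses rests on that choice, which was made on these 2 genes alone. Against untransduced VM, 7.30% of the transcripts that passed the level limit given below were higher in VM C by 2-fold or more and 8.48% lower. In VM NF these shares were 0.322% and 0.668%, so VM NF lay closer to untransduced VM. What this means for the labels was not tested.

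Library totals lay between 20010818 and 22554835 reads. Summed over 11 astrocyte markers, the share of counted reads was 0.202% in untransduced VM, 0.167% in VM C, 0.175% in VM NF, 0.441% in Ctx astrocytes and 1.08% in Ctx NPC. The Ctx NPC library stood apart from its label. It held 122531 reads of the astrocyte gene Gfap and 75411 of the myelin gene Mbp beside 13357 of the progenitor gene Nes, against 27820, 251 and 13311 in Ctx astrocytes. With 1 library per condition there is no replicate check and no test of any condition. Log2 ratios have 0.5 reads added, fold values are plain ratios of reads scaled to library totals, and the 95% intervals given are exact (Clopper-Pearson) intervals of the plain ratio. They account for the counting of reads alone, and PCR copies of a molecule are counted as if they were separate molecules.

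Microglia are the resident macrophages of the brain. They arise from yolk sac progenitors, depend on the receptor encoded by Csf1r and its ligands Csf1 and Il34, and keep a surveying state marked by purine and chemokine receptors such as P2ry12 and Cx3cr1. Their identity is set by the transcription factors PU.1 (Spi1) and Irf8, which other macrophages share, and by Sall1, which among macrophages is largely particular to microglia. Neonatal glial cultures commonly carry microglia on top of the astrocyte layer. In bulk RNA of this kind, fewer cells of a type and less RNA per cell cannot be told apart.

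Of the 37 genes with a read in any library, 36 were highest in VM C after scaling to library totals, and 34 were lowest in Ctx NPC (ties included). Together they took 0.370% of the counted reads in untransduced VM (95% interval 0.367 to 0.372), 1.01% in VM C (1.01 to 1.02), 0.277% in VM NF (0.274 to 0.279), 0.142% in Ctx astrocytes (0.141 to 0.144) and 0.0272% in Ctx NPC (0.0265 to 0.0280). The summed share was therefore 2.74-fold higher in VM C than in untransduced VM and 3.66-fold lower in VM NF than in VM C. It was 1.34-fold lower in VM NF than in untransduced VM. On the scale of FPKM, which divides reads by transcript length and library total, 30 of the 38 genes were above 1 in untransduced VM, 34 in VM C, 27 in VM NF, 24 in Ctx astrocytes and 4 in Ctx NPC.

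**Figure D1:**
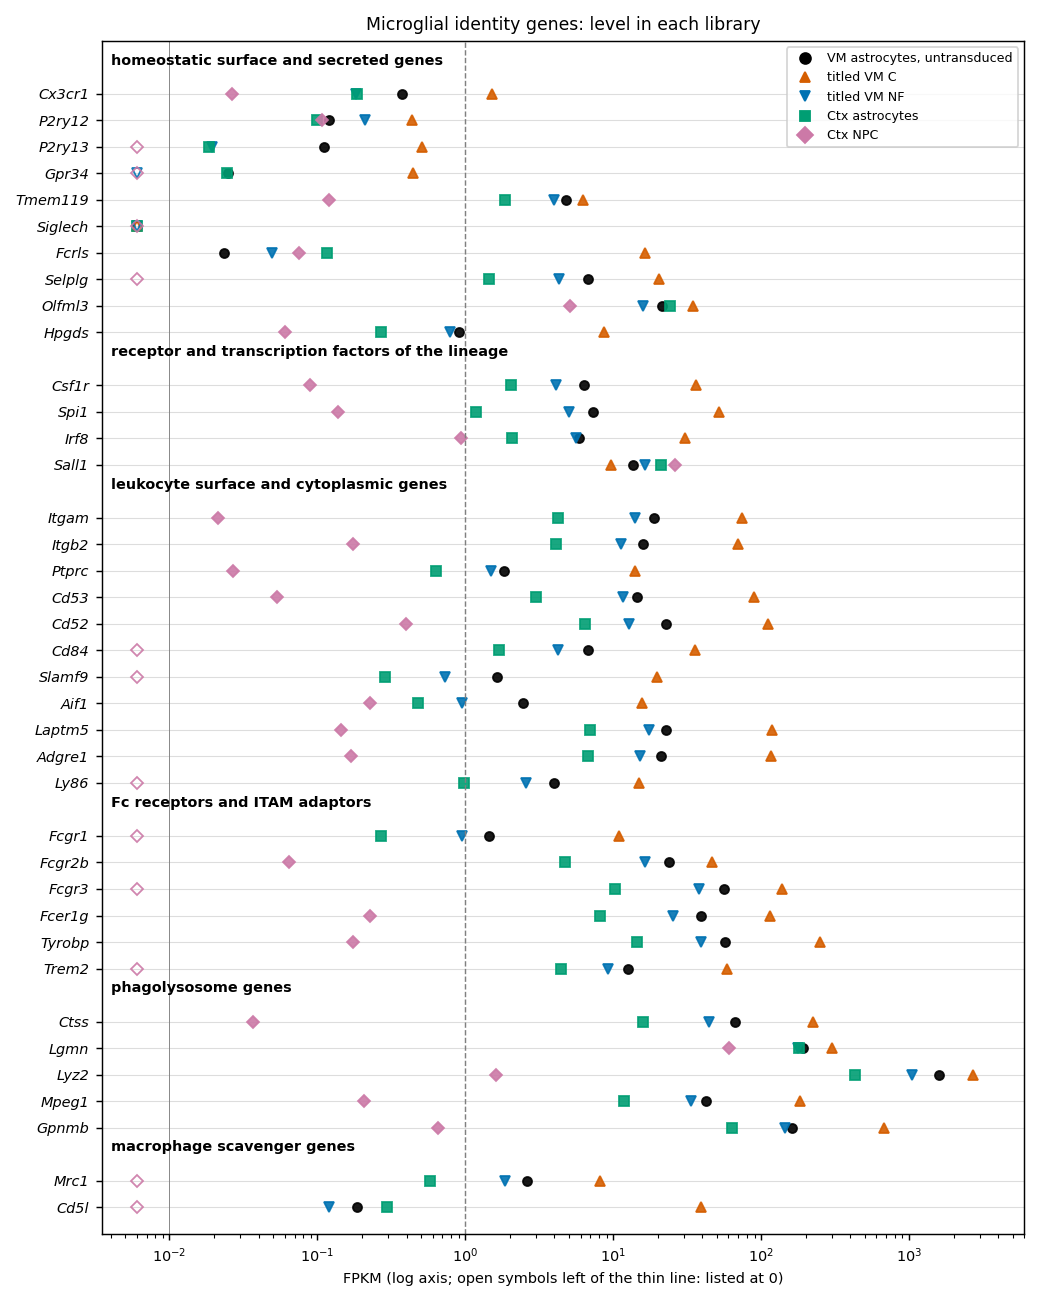
Level of the 38 genes in each of the 5 libraries, as FPKM on a log axis, grouped by role; each point is 1 library, open symbols are genes listed at 0, and the dashed line marks an FPKM of 1. The VM C points lie furthest right in every row but those of Sall1, where VM C is lowest, and Siglech, which is listed at 0 in all libraries.

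The regulators of the lineage separated into 3 genes that were higher in VM C and 1 that was not. Csf1r, the receptor of CSF1 and IL34, had 527 reads in untransduced VM, 3199 in VM C, 326 in VM NF, 170 in Ctx astrocytes and 7 in Ctx NPC. Spi1, which encodes PU.1, had 226, 1711, 149, 37 and 4 reads in the same order of libraries, used for all genes from here on. Irf8, the partner of PU.1 on composite sites, had 355, 1960, 326, 126 and 53 reads. All 3 were highest in VM C, followed by untransduced VM, VM NF, Ctx astrocytes and Ctx NPC, and for Irf8 untransduced VM and VM NF lay within counting error of each other (log2 -0.06, -0.28 to 0.16).

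Sall1 had 1517, 1151, 1743, 2355 and 2746 reads. After scaling to library totals its order was the reverse, with the lowest level in VM C and the highest in Ctx NPC, the library with the fewest reads on the rest of the list. Neural progenitors also express Sall1, and its reads cannot be assigned to a cell type here. Against untransduced VM, the log2 ratio in VM C was 2.52 for Csf1r (95% interval 2.39 to 2.65), 2.84 for Spi1 (2.64 to 3.04), 2.38 for Irf8 (2.22 to 2.55) and -0.48 for Sall1 (-0.59 to -0.37).

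PU.1 binds purine-rich DNA around the letters GGAA, and the RefSeq promoter sequences (250 bases before to 50 after each transcript start that the RefSeq table uses for a gene, GRCm38.p6) were searched for 3 strings on both strands. Of the 39 listed genes, 30 had a promoter in the RefSeq table. GAGGAAGT was found in 4 of them (13.3%), against 3.69% of all 27025 genes in the table and 4 of 22 other myeloid genes (18.2%). The shorter GGAAGT, which GAGGAAGT contains, was found in 15 of 30 (50%), against 26.5% of all genes and 59.1% of the other myeloid genes. The composite site of PU.1 with an IRF partner, GGAA and GAAA with 2 bases of any kind between them, was found in 2 of 30 (6.67%), in Cd68 and Fcgr2b, against 3.16% of all genes. A match is a description of these letters and not a bound site.

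The 4 promoters with GAGGAAGT are printed because those genes (Hpgds, Cd53, Slamf9 and Ctss) are followed below, and those of Fcrls and Cd5l because these genes had the largest ratios. Sequences are from RefSeq, 5′ to 3′ on the gene's strand. Capitals mark GAGGAAGT or its reverse complement in the first 4 sequences and GGAAGT or its reverse complement in the last 2, of which Cd5l has none.
Hpgds (chr6:65144681-65144980, minus strand): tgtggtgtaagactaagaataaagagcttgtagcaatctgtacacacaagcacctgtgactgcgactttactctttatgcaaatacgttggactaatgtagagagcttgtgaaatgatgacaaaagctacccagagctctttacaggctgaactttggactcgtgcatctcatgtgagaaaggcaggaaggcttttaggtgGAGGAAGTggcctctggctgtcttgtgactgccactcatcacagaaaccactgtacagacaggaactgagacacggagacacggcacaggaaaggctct
Cd53 (chr3:106790100-106790399, minus strand): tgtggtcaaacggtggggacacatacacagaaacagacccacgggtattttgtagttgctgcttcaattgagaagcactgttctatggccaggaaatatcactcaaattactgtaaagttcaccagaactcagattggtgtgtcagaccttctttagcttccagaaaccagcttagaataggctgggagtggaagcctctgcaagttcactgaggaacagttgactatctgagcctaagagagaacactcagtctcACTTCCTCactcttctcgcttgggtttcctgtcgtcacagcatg
Slamf9 (chr1:172475110-172475409, plus strand): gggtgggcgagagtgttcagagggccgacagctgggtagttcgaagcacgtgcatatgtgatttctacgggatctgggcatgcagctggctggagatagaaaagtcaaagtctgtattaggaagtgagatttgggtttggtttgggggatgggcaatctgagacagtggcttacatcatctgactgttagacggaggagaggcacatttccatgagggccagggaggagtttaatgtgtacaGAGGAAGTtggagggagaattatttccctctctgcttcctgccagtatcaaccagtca
Ctss (chr3:95526536-95526835, plus strand): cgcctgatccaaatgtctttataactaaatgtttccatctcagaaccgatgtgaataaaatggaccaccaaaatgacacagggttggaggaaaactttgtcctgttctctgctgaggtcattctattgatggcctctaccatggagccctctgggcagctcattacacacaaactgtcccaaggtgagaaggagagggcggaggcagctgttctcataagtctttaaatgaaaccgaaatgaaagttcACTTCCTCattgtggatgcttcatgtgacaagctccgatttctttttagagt
Fcrls (chr3:87263475-87263774, minus strand): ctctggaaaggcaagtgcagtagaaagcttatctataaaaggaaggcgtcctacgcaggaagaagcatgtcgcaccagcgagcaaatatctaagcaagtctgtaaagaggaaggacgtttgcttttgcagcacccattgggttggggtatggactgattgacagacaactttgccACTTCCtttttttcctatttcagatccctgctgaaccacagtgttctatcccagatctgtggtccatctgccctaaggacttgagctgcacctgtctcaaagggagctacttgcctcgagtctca
Cd5l (chr3:87357631-87357930, plus strand): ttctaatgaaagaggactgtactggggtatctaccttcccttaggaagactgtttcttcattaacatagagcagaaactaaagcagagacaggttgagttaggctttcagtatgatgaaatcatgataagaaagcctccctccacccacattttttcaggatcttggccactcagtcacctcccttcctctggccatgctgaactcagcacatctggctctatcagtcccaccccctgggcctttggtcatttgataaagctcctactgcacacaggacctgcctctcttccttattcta
These windows surround a start at position 65144730 in Hpgds, 172475360 in Slamf9 and 87263524 in Fcrls, which lies 251, 16791 and 241 bases inside the gene as counted from its outermost annotated start, and the outermost start itself in Cd53, Ctss and Cd5l. Relative to the transcript start used, the leftmost capital as printed lay 49 bases before in Hpgds, 8 before in Slamf9, 2 before in Ctss and 6 after in Cd53. In Ctss and Cd53 the capitals are the reverse complement of GAGGAAGT, and in Ctss they run across the start.

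The homeostatic genes had the lowest median FPKM of the 6 role groups in each of the 4 astrocyte libraries (0.248 in untransduced VM, 3.86 in VM C, 0.197 in VM NF and 0.152 in Ctx astrocytes). The fractalkine receptor Cx3cr1 had 30, 128, 14, 15 and 2 reads, and its FPKM passed 1 in VM C alone (1.51). The ADP receptors P2ry12 and P2ry13 had at most 23 and 29 reads, both in VM C, and the lysophosphatidylserine receptor Gpr34 had 1, 19, 0, 1 and 0. None of the 3 reached an FPKM of 1 in any library, so the receptors that most narrowly mark surveying microglia were close to the limit of detection.

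The ADP receptors lie within the gene Med12l, and Gpr34 overlaps Cask. The sources used here do not state whether counting used strand, so reads of these pairs could not be told apart. Med12l itself had 217, 184, 297, 288 and 552 reads, and was not highest in VM C. Siglech, a sialic acid-binding lectin, had 0 reads in all 5 libraries, and a count of 0 allows a level of up to 3 reads in a library.

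Other homeostatic genes were measured well. Tmem119, a membrane protein used as a microglial marker, had 212, 291, 167, 83 and 5 reads. Selplg, the P-selectin ligand, had 376, 1198, 227, 81 and 0. Olfml3, a secreted olfactomedin-like protein, had 788, 1361, 563, 905 and 178. For Tmem119 and Olfml3 the VM C library stood only slightly above untransduced VM, with log2 ratios of 0.37 (0.11 to 0.64) and 0.71 (0.58 to 0.83), and Ctx astrocytes had more Olfml3 than untransduced VM.

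Hpgds, the haematopoietic prostaglandin D synthase, had 64, 644, 53, 19 and 4 reads. Fcrls, an Fc receptor-like scavenger receptor, had 1, 734, 2, 5 and 3. The Fcrls reads were thus nearly all in 1 library: VM C was 693-fold above untransduced VM, a ratio over a single read with a counting interval of 124 to 27418.

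All 11 leukocyte genes were higher in VM C than in untransduced VM by 2-fold or more, with log2 ratios of 1.89 to 3.57. Of all transcripts with an FPKM above 1 in either library, 7.30% were higher to that extent. Itgam (CD11b) had 1893, 7874, 1346, 425 and 2 reads, and Itgb2 (CD18), with which it forms complement receptor 3, had 965, 4530, 664, 253 and 10. Ptprc, the leukocyte phosphatase CD45, had 219, 1767, 169, 76 and 3. Each of the 3 was highest in VM C, next in untransduced VM, then in VM NF and Ctx astrocytes.

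Adgre1 (F4/80), an adhesion receptor of macrophages, had 1471, 8503, 1007, 474 and 11 reads. Laptm5, a lysosomal membrane protein of blood-derived cells, had 1172, 6369, 858, 358 and 7. The tetraspanin Cd53 had 859, 5670, 663, 181 and 3. The order of libraries was the same as for Itgam, and Cd53 was 6.23-fold higher in VM C than in untransduced VM (log2 2.64, 2.54 to 2.75).

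The SLAM family receptors Cd84 and Slamf9 had 476, 2657, 283, 120 and 0 reads and 40, 509, 17, 7 and 0 reads. Aif1, which encodes IBA1, the antigen by which microglia are usually counted, had 46, 311, 17, 9 and 4. Cd52, a small surface glycoprotein, had 243, 1257, 131, 70 and 4, and Ly86 (MD-1) had 85, 335, 52, 21 and 0. Slamf9 had the largest ratio of the group between VM C and untransduced VM, 12.02-fold (log2 3.57, 3.12 to 4.09), and Ly86 the smallest, 3.72-fold (log2 1.89, 1.55 to 2.26).

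Among the Fc receptors, Fcgr1, the high-affinity IgG receptor, had 80, 636, 50, 15 and 0 reads. Fcgr3, the low-affinity activating receptor, had 1626, 4226, 1046, 300 and 0. Fcgr2b, the inhibitory receptor, had 781, 1636, 519, 157 and 2. All 3 were highest in VM C but by unequal factors, 7.51-fold for Fcgr1, 2.45-fold for Fcgr3 and 1.98-fold for Fcgr2b over untransduced VM, and their log2 intervals (2.57 to 3.26, 1.21 to 1.38 and 0.86 to 1.11) did not overlap.

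Fcer1g, the common gamma chain through which Fcgr1 and Fcgr3 signal, had 549, 1707, 343, 115 and 3 reads. Tyrobp (DAP12), the adaptor of TREM2, had 690, 3203, 456, 177 and 2. Trem2, a lipid-sensing receptor, had 308, 1516, 217, 110 and 0. Trem2 per Tyrobp by FPKM was 0.221, 0.235, 0.236 and 0.308 in the 4 astrocyte libraries, highest in Ctx astrocytes.

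The phagolysosome genes held most of the list's reads in the 4 astrocyte libraries, whereas in Ctx NPC they held 2389 of 5447 and Sall1 alone held 2746. Lyz2, lysozyme M, had 36129, 64797, 22524, 9774 and 34 reads, and by FPKM it was the 10th, 8th, 17th and 76th of all transcripts in the 4 astrocyte libraries. Gpnmb, a lysosomal glycoprotein, had 13146, 58296, 11120, 5161 and 50. Together Lyz2 and Gpnmb made up 71.8%, 59.9%, 68.9% and 59.1% of the list's summed FPKM in those libraries and 2.32% in Ctx NPC, so sums of FPKM over the list were mainly sums of these genes in the astrocyte libraries. The near-identical copy Lyz1 had 8, 69, 7, 5 and 1 reads, and how reads shared by the copies were counted is not given in the sources used here.

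Mpeg1 (perforin-2) had 3922, 17823, 2949, 1101 and 18 reads, and the protease Ctss (cathepsin S) 1922, 6877, 1237, 468 and 1. Lgmn, the protease legumain, had 7719, 12787, 6810, 7277 and 2286. Lgmn differed from its group in that Ctx astrocytes had nearly as much as untransduced VM, with a log2 ratio of -0.09 (-0.14 to -0.05). In Ctx NPC it gave 62.1% of the list's summed FPKM, followed by Sall1 with 26.8%.

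Of the scavenger genes, Mrc1 (CD206), the mannose receptor, had 299, 982, 202, 66 and 0 reads. Cd5l, a secreted protein of tissue macrophages that binds lipids, had 8, 1789, 5, 13 and 0. As with Fcrls, the reads lay almost wholly in VM C, which was 211-fold above untransduced VM (107 to 490) and 323-fold above VM NF (log2 -8.20 for VM NF over VM C, -9.96 to -7.11). By FPKM Cd5l stood at 38.8 in VM C, above Csf1r at 36.4, and at 0.184 in untransduced VM, where Csf1r stood at 6.35.

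Against untransduced VM, 28 of the 38 genes were called higher in VM C, that is by 2-fold or more and with an FPKM over 1 in either library, and none was called lower. Of all transcripts that passed the same FPKM limit, 7.30% were higher and 8.48% lower. The limit was passed by 34 of the 38 genes, 4 of them through VM C alone, and 24 of the 30 above it in both libraries were higher. The median log2 ratio of the 38 genes was 2.12, against -0.01 over all transcripts that passed, and the values ran from -0.48 in Sall1 to 8.85 in Fcrls. The genes called were 4 of 10 homeostatic genes, 3 of 4 regulators, 11 of 11 leukocyte genes, 5 of 6 Fc receptors and adaptors, 3 of 5 phagolysosome genes and 2 of 2 scavenger genes. Those that passed the limit without reaching 2-fold were Sall1, Tmem119, Lgmn, Olfml3, Lyz2 and Fcgr2b. Among the 12703 transcripts that passed, Fcrls and Cd5l ranked 1 and 2 by ratio and Slamf9 ranked 18. These genes were already known as large differences when the list was chosen.

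Against untransduced VM, 2 of the 38 genes (Aif1 and Slamf9) were lower in VM NF by 2-fold or more, and none was higher. Of all transcripts that passed, 0.668% were lower and 0.322% higher. Both genes passed the FPKM limit through untransduced VM alone (2.45 and 1.63, against 0.947 and 0.727 in VM NF). The number lower was 0 with the limit in both libraries, 0 at 2.6-fold and 1 with 5 reads added. With no FPKM limit 5 genes were lower (the others were P2ry13, Gpr34 and Cx3cr1, each with 30 reads or fewer), against 5.06% of all transcripts. The median log2 ratio was -0.51, against -0.05 over all transcripts that passed, and 34 genes lay below 0 and 3 above. Of all 20178 transcripts 9323 lay below 0 and 7330 above, and of the 12428 that passed 7142 lay below and 5286 above. The limit was passed by 30 genes. The ratio was below 0 for all 11 leukocyte genes (-1.34 to -0.31), all 6 Fc receptors and adaptors (-0.61 to -0.44) and all 5 phagolysosome genes (-0.61 to -0.11). Sall1 lay above 0 (0.27, 0.17 to 0.37), as did P2ry12 and Fcrls, which rested on 16 reads or fewer in the 2 libraries together. The VM C and VM NF comparisons share the untransduced library and are set side by side here.

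**Figure D2:**
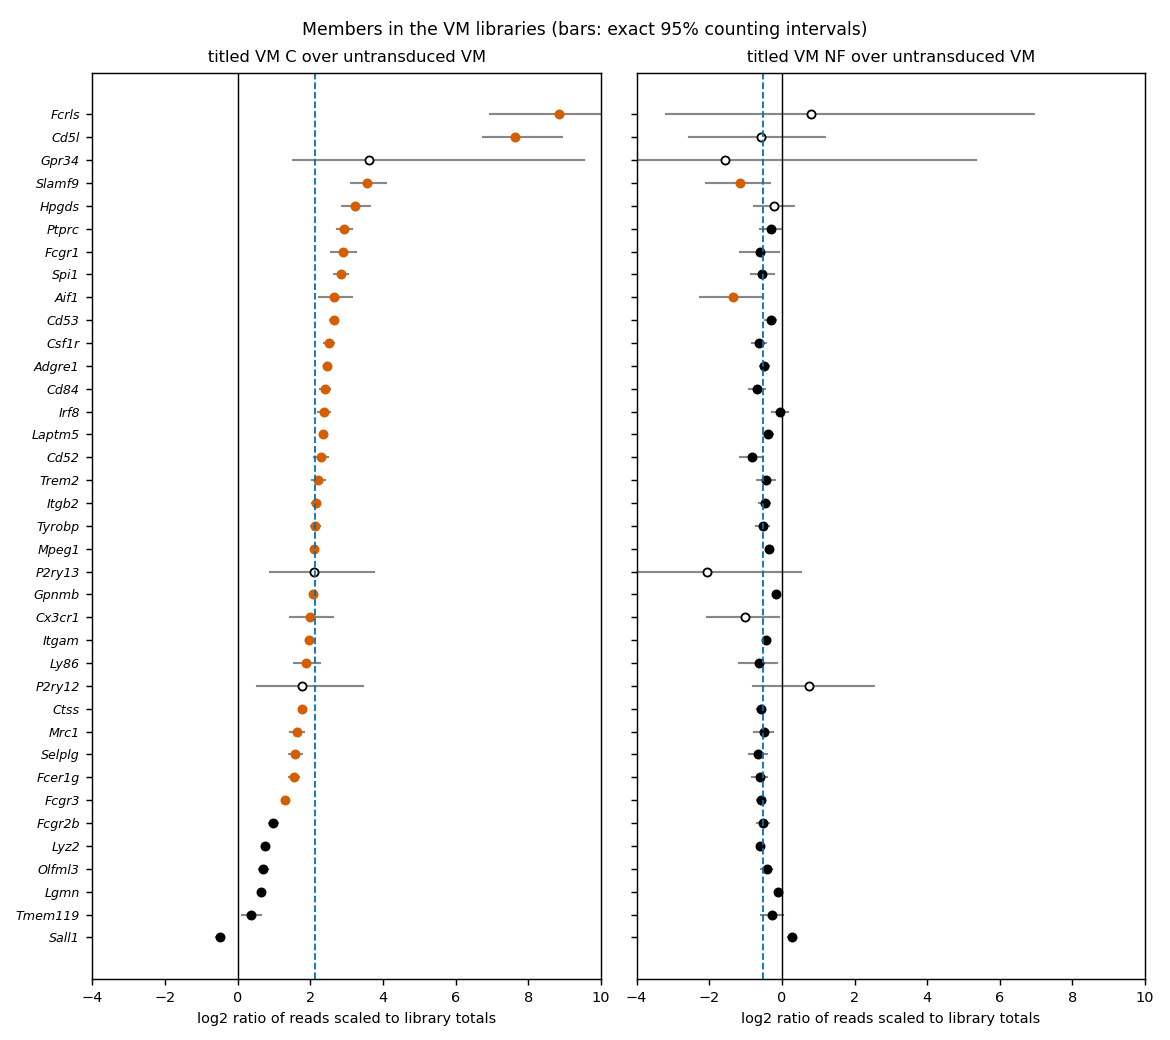
Log2 ratio of reads, scaled to library totals, of VM C (left) and VM NF (right) over untransduced VM for the 37 genes with a read in any library; bars are exact 95% counting intervals (cut at the axis limits), coloured points passed 2-fold with an FPKM above 1, open points did not pass the FPKM limit, and the dashed line is the median of the 38 genes. The left points spread from -0.48 to 8.85 about a median of 2.12, and the right points lie closer together about -0.51.

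Between the transduced libraries, 31 of the 38 genes were lower in VM NF than in VM C by 2-fold or more and none was higher, where 9.73% of all transcripts that passed were lower and 9.53% higher. The limit was passed by 34 genes, 7 of them through VM C alone, and 24 of the 27 above it in both libraries were lower. The median log2 ratio was -2.64, or -2.62 with Gpr34 at its bound, against -0.02 over all transcripts that passed. The leukocyte genes ran from -4.72 in Slamf9 to -2.40 in Itgam. Spi1 stood at -3.37 (-3.62 to -3.13), Csf1r at -3.14 (-3.31 to -2.98) and Aif1 at -4.01 (-4.84 to -3.34). Gpr34, with 19 reads in VM C and 0 in VM NF, was at least 5.71-fold lower against a floor of 3 reads in the VM NF library, and the 95% interval, which also covers the counting of the 19 reads, reached down to 4.21-fold. Lgmn, at -0.76 (-0.80 to -0.72), and Tmem119, at -0.65 (-0.93 to -0.37), were lower by less than 2-fold, and Sall1 was higher (0.75, 0.64 to 0.86).

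In cortex against midbrain, 27 of the 38 genes were lower in Ctx astrocytes than in untransduced VM by 2-fold or more and none was higher, where 9.89% of all transcripts that passed were lower and 4.49% higher. The limit was passed by 30 genes, 6 of them through untransduced VM alone, and 21 of the 24 above it in both libraries were lower. The median log2 ratio was -1.82, against -0.05 over all transcripts that passed. All 11 leukocyte genes and all 6 Fc receptors and adaptors were lower by 2-fold or more, from -2.44 to -1.53 and from -2.45 to -1.49. Spi1 had the lowest ratio of the list, -2.60 (-3.16 to -2.11), while Irf8 stood at -1.50 (-1.81 to -1.21) and Sall1 at 0.63 (0.53 to 0.72). With no FPKM limit 1 gene was higher, Fcrls with 5 reads against 1, where 6.54% of all transcripts were higher. Of the genes that passed the FPKM limit, Lgmn (-0.09), Olfml3 (0.19, 0.05 to 0.33) and Sall1 were not called. Region was not the one thing that differed between these cultures: all 8 proliferation markers were also lower in Ctx astrocytes by 2-fold or more, and 6 of 11 astrocyte markers were higher.

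Between the cortical libraries, 23 of the 38 genes were lower in Ctx NPC than in Ctx astrocytes by 2-fold or more and none was higher, where 17.9% of all transcripts that passed were lower and 20.1% higher. The limit was passed by 24 genes, 20 of them through Ctx astrocytes alone. Those 20 were above 1 only in the library where they were high, so their count says little beside that share, and of the 4 genes above the limit in both libraries 3 were lower. The median log2 ratio was -4.62, or -4.36 over the 35 genes that allow a value when 9 with 0 reads in Ctx NPC were set at their bound, while the median over all transcripts that passed was 0.19. Of the 38 genes, 12 had 0 reads in Ctx NPC and 21 had 3 or fewer. Fcgr3, with 300 reads in Ctx astrocytes and 0 in Ctx NPC, was at least 93.4-fold lower, Cd84 at least 37.3-fold and Trem2 at least 34.2-fold, against a floor of 3 reads in the Ctx NPC library. The 95% intervals of these ratios reached down to 75.5-fold, 29.9-fold and 27.4-fold. Only 4 genes kept an FPKM above 1 in Ctx NPC, namely Lgmn (60.5), Sall1 (26.1), Olfml3 (5.12) and Lyz2 (1.60). Developmental stage differed with the cell type in this comparison, and these cannot be told apart.

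The genes did not move by a single factor between VM C and untransduced VM. The interquartile range of the log2 ratios was 1.01 there, 1.07 between VM NF and VM C, 0.82 between Ctx astrocytes and untransduced VM, and 0.32 between VM NF and untransduced VM. Of the 37 genes with a read, the counting interval held the list's median for 10, 8, 18 and 28 in those comparisons, so the VM NF ratios over untransduced VM mostly lay within counting error of the median of those 37 genes, -0.52. Between Ctx NPC and Ctx astrocytes the range was 3.82, with few reads on the Ctx NPC side. For the separate list of other myeloid genes described below, the ranges were 1.05, 0.99, 0.52, 0.41 and 3.17 in the same order of comparisons. The wide spread in VM C was thus not particular to the microglial identity genes.

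Ratios between genes of the same library put the same log2 ratios in another form, so they are not separate support for the spread of the list. The pairs were chosen after the values were seen. Lyz2 per Csf1r, by FPKM, was 252 in untransduced VM, 74.4 in VM C, 254 in VM NF and 211 in Ctx astrocytes. Fcgr3 per Fcgr1 was 38.8, 12.7, 40.0 and 38.2, and Tmem119 per Csf1r was 0.754, 0.170, 0.960 and 0.915. In all 3 pairs VM C was the library that stood away from the others. Itgam per Itgb2, by contrast, lay between 1.03 and 1.24 in the 4 libraries. Fcer1g per Tyrobp was 0.685, 0.459, 0.648 and 0.560, lowest in VM C, and the log2 intervals of VM C over untransduced VM for Fcer1g (1.41 to 1.70) and Tyrobp (2.01 to 2.25) did not overlap.

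**Figure D3:**
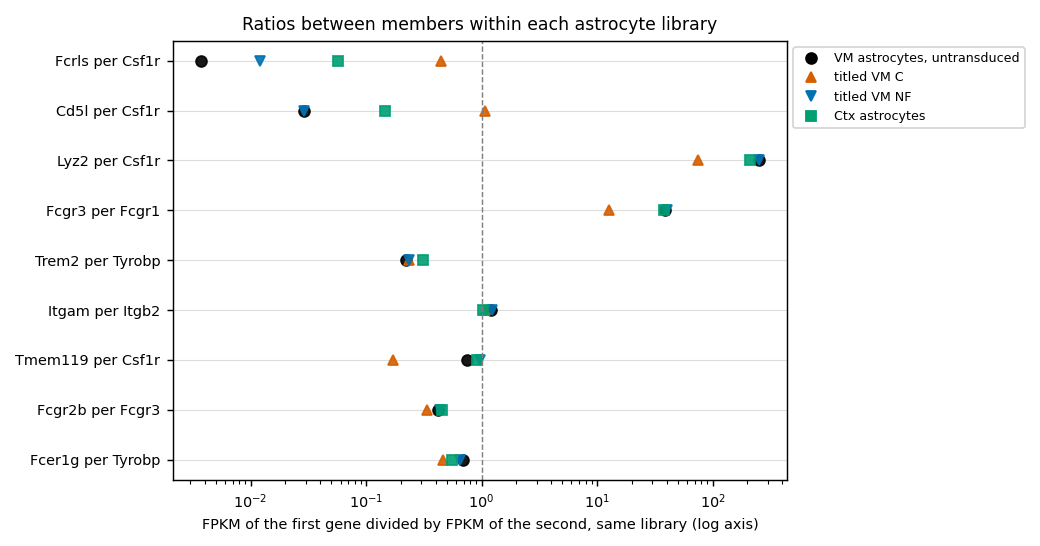
FPKM of one gene divided by FPKM of another within the same library, on a log axis, for 9 pairs and the 4 astrocyte libraries; each point is 1 library, and Ctx NPC is left out because its counts on these genes were mostly below 10 reads. VM C stands away from the other 3 libraries for Fcrls, Cd5l, Lyz2 and Tmem119 per Csf1r and for Fcgr3 per Fcgr1, and lies among or beside them for Trem2 per Tyrobp and Itgam per Itgb2.

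Fcrls and Cd5l are neighbours on chromosome 3 (GRCm38.p6, Fcrls 87250736 to 87263765 and Cd5l 87357881 to 87371074), 94.1 kb apart with no protein-coding gene between them. Next to Cd5l lie Fcrl1 and Fcrl5, which encode Fc receptor-like proteins of B cells. Fcrl1 had 0, 25, 0, 1 and 0 reads and Fcrl5 0, 4, 0, 1 and 0, so that Fcrl1 was at least 7.87-fold higher in VM C than in untransduced VM against a floor of 3 reads, with a 95% interval that reached down to 5.94-fold. The B-cell markers Cd79a and Ms4a1 had at most 3 reads in any VM library. The outer neighbours did not share the pattern: Kirrel had 5768, 3613, 6581, 4020 and 623 reads and Etv3 924, 1019, 1317, 1021 and 893.

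**Figure D4:**
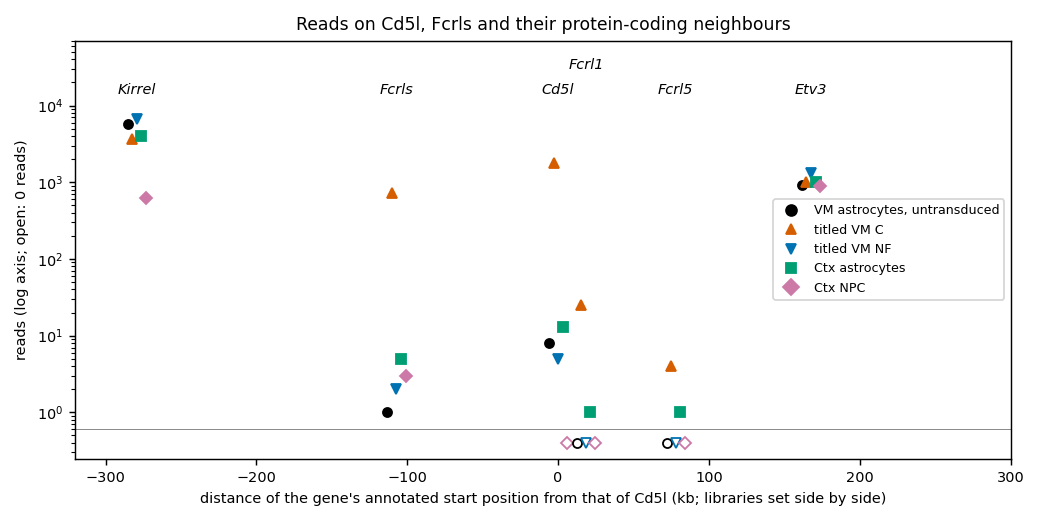
Reads on 6 genes around Cd5l in the 5 libraries (log axis), placed by the distance in kb of the annotated start position from that of Cd5l; each point is 1 library, and open symbols below the line are 0 reads. Fcrls, Cd5l and Fcrl1 have 734, 1789 and 25 reads in VM C and at most 13 in any other library, while Kirrel and Etv3 have 623 to 6581 reads throughout.

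Other myeloid genes were read from a separate list of 35, among them complement C1q, the NADPH oxidase chain Cybb and the signalling genes Vav1 and Syk. In VM C over untransduced VM, 33 of the 35 were higher by 2-fold or more, against 7.30% of all transcripts that passed, with a median log2 ratio of 2.39. The largest count was that of C3ar1, the receptor of complement fragment C3a, with 1101, 11705, 691, 393 and 1 reads. In VM NF over untransduced VM none of the 35 was called, and the median was -0.41. Of all transcripts that passed, only 0.322% were higher and 0.668% lower there, so that count says little about myeloid genes. In Ctx astrocytes over untransduced VM 27 were lower, against 9.89% of all transcripts that passed, with a median of -1.67. Set against the median of these genes, 26 of the 38 microglial identity genes lay within 2-fold in VM C over untransduced VM. Further above were 4 (Fcrls, Cd5l, Gpr34 and Slamf9), and 8 were listed further below (Sall1, Siglech, Tmem119, Lgmn, Olfml3, Lyz2, Fcgr2b and Fcgr3). Siglech had 0 reads in both libraries, so its place among the 8 came from the added reads alone and is not a measured difference. The median of the other myeloid genes was chosen as reference after the data had been seen.

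Of the 6 ligands listed for microglial growth and quiescence, 1 was higher in VM C than in untransduced VM by 2-fold or more and 2 were lower. Of all transcripts that passed, 7.30% were higher and 8.48% lower. Csf1, the main ligand of the Csf1r receptor, had 12557, 8363, 14870, 12057 and 1740 reads, so it was lower in VM C than in untransduced VM (log2 -0.67, -0.71 to -0.63). Il34, its other ligand, had 708, 987, 627, 241 and 20. Cx3cl1 (fractalkine), the ligand of Cx3cr1, had 11159, 8970, 11084, 9618 and 2330. Tgfb1 was the ligand that was higher (971, 2254, 1029, 437 and 60 reads), and Tgfb2 and Tgfb3 were those that were lower. Tgfb3 had 3613, 712, 3430, 3436 and 157 reads, the lowest of the 4 astrocyte libraries in VM C.

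Genes of the phagocytic state of microglia were led by Spp1 (osteopontin), with 49052, 119830, 41781, 12630 and 233 reads. In VM C over untransduced VM, 3 of the 7 genes found were higher by 2-fold or more (Spp1, Lpl and Lilrb4a), and none was lower. The shares of all transcripts that passed were 7.30% higher and 8.48% lower. Itgax (CD11c) had 7, 31, 3, 3 and 0 reads and Cst7 4, 10, 2, 1 and 0, so neither reached the FPKM limit, whereas Axl, a receptor used in the clearance of dying cells, had 15207, 17663, 15222, 11664 and 2340.

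Markers of other cells moved with some of these results. Summed over 9 border macrophage markers, the share of reads was 0.0122% in untransduced VM, 0.0427% in VM C, 0.00895% in VM NF, 0.00292% in Ctx astrocytes and 0.00022% in Ctx NPC. In VM C over untransduced VM, 4 of the 9 were higher by 2-fold or more, against 7.30% of all transcripts that passed. Siglec1 had 1265, 5379, 1032, 415 and 0 reads and Ms4a7 315, 1523, 200, 92 and 1, whereas Pf4 had 534, 608, 301, 36 and 0 and F13a1 148, 197, 81, 19 and 0. Lyve1 had at most 12 reads and Cd163 at most 22. The part of border macrophages in the results was not tested.

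The monocyte markers Ccr2 and Ly6c2 had at most 3 reads in any library, and the sum over the 6 monocyte markers was lower in VM C (168 reads) than in untransduced VM (276). Plac8 alone gave 147 and 266 of these reads, and without it the sum went the other way, with 21 reads in VM C and 10 in untransduced VM, of which Chil3 gave 16 and 8. The 7 lymphocyte markers summed to 2 to 7 reads per library. The neutrophil gene S100a8 had 116, 372, 35, 15 and 0 reads, but its partner S100a9 had at most 1 and Mpo at most 2. In VM C over untransduced VM, 7.30% of all transcripts that passed were higher by 2-fold or more and 8.48% lower. Of 9 oligodendrocyte markers, 6 were higher in VM C than in untransduced VM by 2-fold or more, with summed shares of 0.0417% and 0.0267%. Of 5 oligodendrocyte progenitor markers 3 were higher (0.0726% and 0.0356%), and of 6 fibroblast and mural markers 2 were lower (0.177% and 0.336%). The fibroblast and mural markers were split, with log2 ratios above 0 for 3 (Dcn, Lum and Pdgfrb) and below 0 for 3 (Col1a1, Col1a2 and Acta2). Dcn, for example, had 2583 reads in VM C and 1551 in untransduced VM, and Col1a1 had 14038 and 27128. The part of these cells in the results was not tested. The 8 proliferation markers did not reach 2-fold between VM C and untransduced VM, with a median log2 ratio of 0.05.

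**Figure D5:**
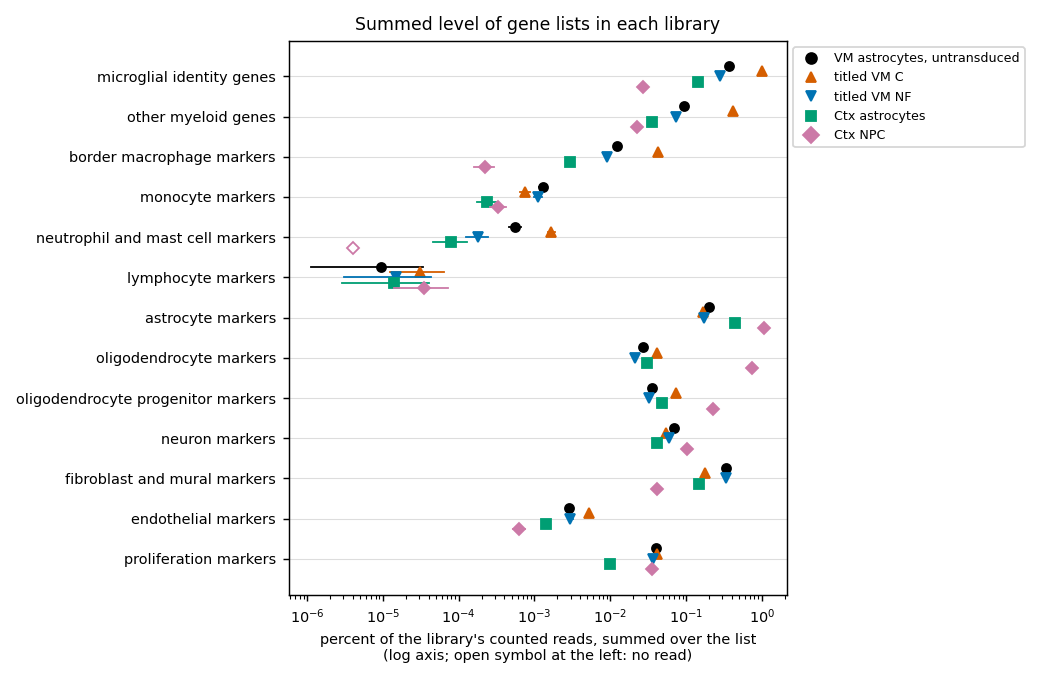
Share of each library's counted reads, in percent on a log axis, summed over gene lists; each point is 1 library with its exact 95% counting interval, and the open symbol marks a sum of 0 reads. The microglial identity genes take 1.01% in VM C, 0.370% in untransduced VM, 0.277% in VM NF, 0.142% in Ctx astrocytes and 0.0272% in Ctx NPC, and the other myeloid and border macrophage lists have the same order, while the monocyte list does not.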

How the data were processed

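Total RNA was sequenced from 5 cultures, 1 library per condition. Per the study's methods, the authors trimmed reads at a quality score of 20, used Bowtie to look at mismatches, aligned with STAR to the genome GRCm38/mm10 and obtained counts from HTSeq-count over exons of RefSeq Release 105. The submitters' processing notes list bcl2fastq 1.8.4, STAR, HTSeq, DESeq and the build mm9 instead, and the files hold no coordinates, so those printed come from the RefSeq annotation of GRCm38.p6. The deposited counts are whole numbers of reads for each transcript, without normalization. The authors also deposited FPKM, and FPKM recomputed from the counts differed by at most 4.09e-05 in relative terms.

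Symbols were taken through RefSeq accessions (19997 of 20178 transcripts). Counts were scaled to library totals, 0.5 reads were added at the mean depth, and ratios were expressed as log2. Calls were made at 2-fold with an FPKM above 1 in at least 1 of the 2 libraries. Intervals of ratios and shares are exact (Clopper-Pearson, 95%). All members were named by symbol, with further genes taken from the lists only, apart from the overlapping, copied or neighbouring genes Med12l, Cask, Lyz1, Fcrl1, Fcrl5, Kirrel and Etv3, which were added after the values were seen, as were the pairs of genes compared within a library. The single values of 2 marker genes are not reported here. The members and lists were chosen with earlier results of these data known. Alternatives were edgeR's TMM factors, DESeq2 size factors, upper-quartile scaling, 5 reads added, no FPKM limit or one in both libraries, and a 2.6-fold cutoff. The arithmetic was tested on simulated data. Python 3.11.15, pandas 2.3.3, scipy 1.17.1, edgeR 4.0.16, DESeq2 1.42.0 and R 4.3.3 served for all calculations.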

Additional observations from a re-analysis of the deposited data

How the results depend on the processing

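No paired analysis was possible because each condition has 1 library. The counts of genes called and the medians of the list kept their direction and size under edgeR's TMM factors, DESeq2 size factors and upper-quartile scaling in all 5 comparisons. Of 190 single-gene ratios, 10, 9 and 2 moved beyond their counting interval under these scalings and 7 with 5 reads added, and none changed sign. The Sall1 ratio in Ctx NPC over Ctx astrocytes, 0.32 as reported, was 0.14, 0.14 and 0.15 under the 3 scalings, which remove the median shift of 0.19 over all transcripts there. In VM NF over untransduced VM the number of genes lower, 2 as reported, became 5 with no FPKM limit, 1 with 5 reads added, 0 with the limit in both libraries and 0 at 2.6-fold. In Ctx NPC over Ctx astrocytes the number lower, 23 as reported, became 3 with the FPKM limit in both libraries, which by construction keeps only genes present in Ctx NPC. In Ctx astrocytes over untransduced VM the number higher became 1 (Fcrls, on 5 reads) with no limit. Taken relative to the median of the other myeloid genes, an alternative added after seeing the data, the list's median log2 ratio changed sign to -0.27 in VM C over untransduced VM and to 0.14 in VM NF over VM C, and moved to -0.10 in VM NF over untransduced VM, -0.15 in Ctx astrocytes over untransduced VM and -1.06 in Ctx NPC over Ctx astrocytes. As a share of summed FPKM the list stood at 0.589%, 1.37%, 0.442%, 0.203% and 0.0246% in untransduced VM, VM C, VM NF, Ctx astrocytes and Ctx NPC. Without the gene with most reads in each library (Lyz2, or Sall1 in Ctx NPC) its share of reads was 0.2001%, 0.726%, 0.166%, 0.0968% and 0.0135%. The number of promoters with the motif was 4 for GAGGAAGT and 15 for the shorter GGAAGT. Read depth limits P2ry12, P2ry13 and Gpr34, with 29 reads or fewer in each library, and the Ctx NPC values, where 21 of the 38 genes had 3 reads or fewer.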
